A study of Mus musculus with 11 samples.

Results

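Mecom, Prdm16, Hlf, Sox4, Erg, Etv6 and Etv1 are 7 transcription factor genes of blood stem cells and leukemia. They were chosen by mouse symbol and matched to Ensembl identifiers among the 51912 genes of the count table, and all 7 were found and passed the filter on low counts. Their RNA was measured by sequencing in lineage-negative bone marrow cells of C57BL/6 mice that carry a tamoxifen-activated Cre, which test whether the order of a CSF3R and a CEBPA mutation alters expression. CSF3R encodes the receptor of granulocyte colony-stimulating factor, and the mutant is an activating one. CEBPA encodes a transcription factor of granulocyte differentiation, and the mutant carries a change in its C-terminal DNA-binding region. Every sample was transduced with a retrovirus that expresses its gene at all times and with a second one that Cre switches on. Sorted GFP- and RFP-positive cells were then kept for 48 h with 4-hydroxytamoxifen, the drug that activates Cre. The CSF3R-only group (n = 4, replicates A to D) had mutant CSF3R from the start and an empty inducible vector. In CSF3R-first (n = 3, A to C) CSF3R was on from the start and CEBPA was switched on, and in CEBPA-first (n = 4, A to D) CEBPA was on from the start and CSF3R was switched on. There was no untransduced or CEBPA-only group, so CSF3R-only served as the control. In all groups expression came from viral promoters in a mixed pool of sorted cells, and the drug was given to all 3 groups alike.

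In adult marrow most of these factors act early in blood formation. Mecom, Prdm16, Hlf and Erg are needed to keep the stem cell pool, Etv6 is needed for stem cells to persist in marrow, and Sox4 acts in early lymphoid cells and in myeloid leukemia. Mecom and Prdm16 encode related zinc finger proteins that can recruit corepressors, Hlf encodes a basic leucine zipper protein of the PAR group, Sox4 a protein with an HMG box, and Erg, Etv6 and Etv1 proteins with the ETS domain, which binds DNA around a GGAA core. MECOM, PRDM16, HLF, ERG and ETV6 are also known from chromosome rearrangements in human leukemia.

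Total counts ran from 47905747 to 72268346 per library (median 53353624). Replicates differed by more than sampling noise (chi-square over its degrees of freedom between 9.11 and 99.1 for pairs within a group), and each was kept as a sample. The sources used here do not say that replicates came from separate animals or cultures, so p-values measure the spread between these samples, which may be technical. Levels are CPM, reads of a gene per 1e+06 reads, scaled to library sizes normalized by TMM (trimmed mean of M values), and tests are the quasi-likelihood test of edgeR, with Benjamini-Hochberg correction across 15703 genes. The threshold was an adjusted p under 0.05 and a log2 fold change of 1 or more, up or down. Ptprc and other genes of all blood cells were counted in every library. The summed CPM of these 8 genes was 10005 to 11194 in the control, 7357 to 9278 with CSF3R first and 5570 to 6330 with CEBPA first. Cd3e and Pax5, which define T and B cells, had no count or nearly none. Yet summed CPM of the 8 B cell genes, most of it Cd79b, went from 3.71 to 4.57 in the control to 6.24 to 7.53 with CEBPA first (3.46 to 4.42 with CSF3R first). For the 8 T and NK cell genes the sums were 0.301 to 0.778, 0.365 to 0.664 and 0.536 to 0.883 in the order control, CSF3R first, CEBPA first. Within these lists, mean CPM of Igll1 rose from 0.0219 in CSF3R-only to 0.305 in CEBPA-first, and that of Klrb1c from 0.0778 to 0.647. Between the same groups Cd79a fell from 0.615 to 0.127 and Cd3d from 0.242 to 0.0475. Summed CPM of 15 neutrophil maturation genes ran from 28627 to 35367 in the control, from 15389 to 26821 when CSF3R came first and from 6691 to 8899 when CEBPA came first. For 10 megakaryocyte and platelet genes the ranges were 1229 to 1612, 444 to 699 and 142 to 184 in the same order, and for 9 genes of primary granules and granulocyte progenitors 4268 to 5210, 6109 to 6843 and 7403 to 7901. By adjusted p, CEBPA-first exceeded CSF3R-only in 6 genes of the last list and lay below it in the other 3, Fcnb, Cebpe and Srgn, where 35.4% of all genes were higher and 36.6% lower by that rule. Sums of monocyte and macrophage genes (2918 to 3736, 1713 to 2862 and 1036 to 1404), erythroid genes (283 to 441, 132 to 454 and 44.0 to 60.2) and eosinophil genes (229 to 348, 55.8 to 129 and 28.1 to 35.0) were lowest in CEBPA-first too. The sum of 8 marrow stromal genes, most of it Pdgfrb in CEBPA-first, was instead highest there (6.29 to 7.44, 7.96 to 11.3 and 18.7 to 22.6), and that of 9 mast cell and basophil genes was highest in CSF3R-only (2139 to 3149, 1335 to 1624 and 1379 to 1810). These marker sums moved with the groups, and their part in the differences of the 7 factors was not tested. In bulk RNA, more cells that express a gene and more of its RNA per cell cannot be told apart.

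CEBPA-first samples had more Mecom, Hlf, Sox4 and Prdm16 than CSF3R-only samples and less Etv1, so that 5 of the 7 factors passed the threshold. Among all genes tested, 27.0% passed it, 8.07% higher and 19.0% lower. Erg and Etv6 passed the adjusted p of 0.05 too, with smaller folds. All 7 therefore met that weaker rule, 6 of them higher, as did 72.0% of all genes (35.4% higher, 36.6% lower). In CSF3R-first against CSF3R-only, 2 factors passed the threshold, Mecom higher and Etv1 lower, where the share over all genes was 6.65% (2.13% higher, 4.53% lower). Between the orders, CEBPA-first exceeded CSF3R-first past the threshold in Mecom, Hlf and Prdm16 and lay below it in Etv1, 4 factors in all, beside 12.8% of all genes (2.57% higher, 10.3% lower). An adjusted p under 0.05 at any fold was met by 4 factors in CSF3R-first against the control, Mecom and Sox4 higher and Erg and Etv1 lower, beside 42.7% of all genes (21.6% higher, 21.1% lower). Between the orders 6 factors met it, all but Etv6, beside 48.3% of all genes (24.0% higher, 24.3% lower). The shares for all genes under this rule are so large that a count near 4 or 6 of 7 says little about the factors as a group. The 3 comparisons share samples and are not independent of each other. The median log2 fold change of all genes was -0.004, -0.022 and 0.001 in the order in which the comparisons were named.

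**Figure D1:**
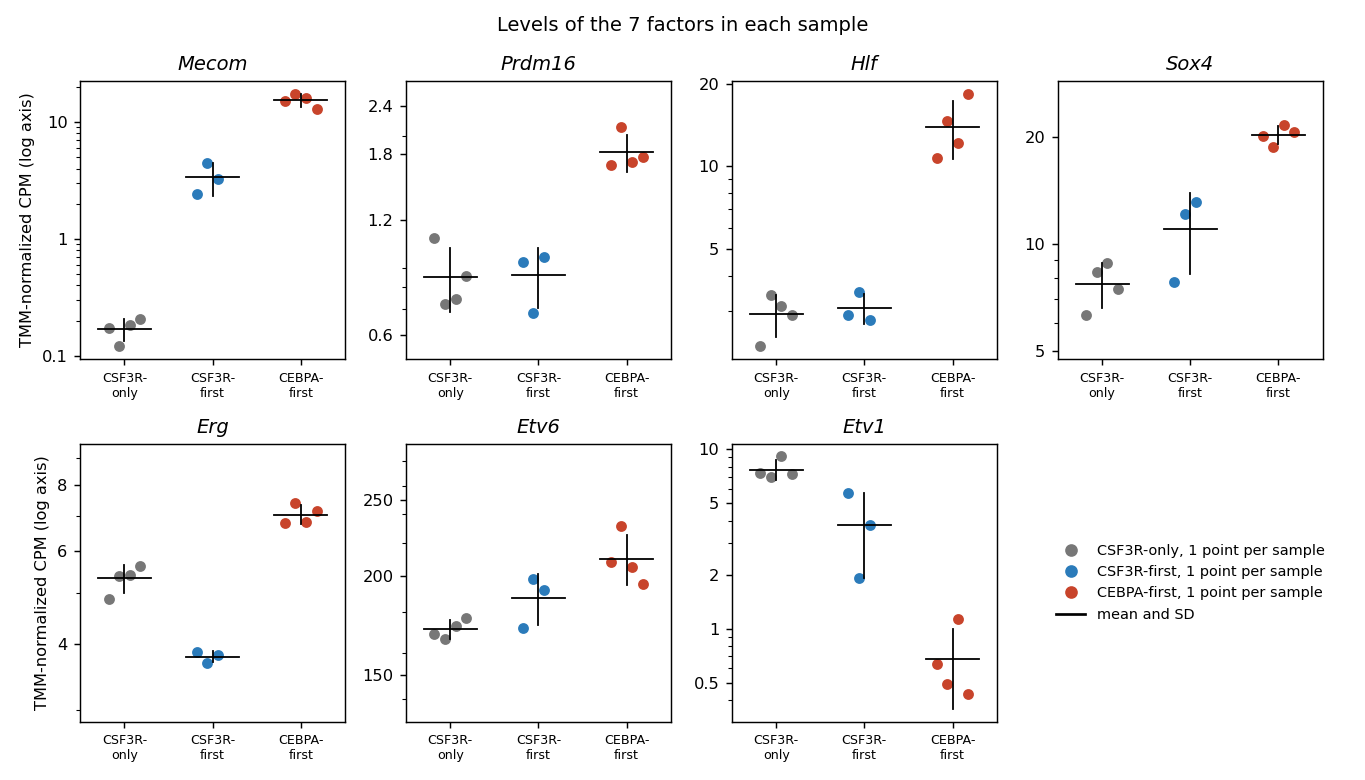
TMM-normalized CPM (log axis, 1 scale per gene) of the 7 factors by group; each point is 1 sample, horizontal lines are means and vertical lines are SDs (n = 4, 3 and 4). Mecom rises from a mean of 0.170 in CSF3R-only through 3.38 in CSF3R-first to 15.4 in CEBPA-first, Hlf and Prdm16 have overlapping CSF3R-only and CSF3R-first samples with CEBPA-first above, Erg is lowest in CSF3R-first, and Etv1 falls from 7.68 through 3.79 to 0.674.

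Mecom showed the widest spread of the 7 factors between groups, and its 3 groups stood apart at every sample. Mecom (ENSMUSG00000027684) lies on the minus strand of chromosome 3 from 29951296 to 30548008 (GRCm38), with 24 blocks of exon sequence. It encodes a zinc finger factor that stem cells need for renewal and that is overexpressed in a subset of myeloid leukemias. RefSeq places starts of Mecom transcripts at an upstream and at an internal position, and the internal one gives the shorter protein that lacks the PR domain. Both promoters, 250 bases that end at the start, are printed because the counts sum over the whole gene and cannot tell which start was used. Capitals mark the only match found in them, to the ETS letters CGGAAG, which read CTTCCG on the opposite strand, with its first base 43 bases before the internal start.
Mecom upstream promoter, chr3:30509760-30510009, minus strand: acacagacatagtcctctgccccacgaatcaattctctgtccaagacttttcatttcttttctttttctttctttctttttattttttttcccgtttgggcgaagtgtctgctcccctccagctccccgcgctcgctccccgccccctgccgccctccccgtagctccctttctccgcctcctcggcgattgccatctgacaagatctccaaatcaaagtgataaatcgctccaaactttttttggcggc
Mecom internal promoter, chr3:30013205-30013454, minus strand: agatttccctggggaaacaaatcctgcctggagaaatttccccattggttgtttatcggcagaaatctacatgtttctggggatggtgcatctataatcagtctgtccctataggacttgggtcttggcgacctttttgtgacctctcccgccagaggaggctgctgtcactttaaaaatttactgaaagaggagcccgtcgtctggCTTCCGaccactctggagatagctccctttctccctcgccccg
The ETS letters occurred in 13.6% of 32851 mouse promoters of the same length. A match is a description of letters and does not show that a factor binds there.

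Mecom was close to the limit of detection in CSF3R-only, with 8, 6, 9 and 13 counts in samples A to D (0.173, 0.120, 0.181 and 0.206 CPM). A count of 0 would allow up to 3 counts, between 0.0383 and 0.0648 CPM in these libraries, and this limit covers counting error only. CSF3R-first samples A to C held 119, 223 and 205 counts (2.42, 4.49 and 3.24 CPM). CEBPA-first samples A to D held 881, 1028, 831 and 1024 counts (15.1, 17.5, 16.0 and 13.1 CPM). The lowest CSF3R-first sample was above the highest CSF3R-only sample, and the lowest CEBPA-first sample was above the highest CSF3R-first sample. The group means of Mecom were 0.170 ± 0.0361 (SD, n = 4), 3.38 ± 1.04 (n = 3) and 15.4 ± 1.86 CPM (n = 4), which made the CEBPA-first mean 90.6-fold and the CSF3R-first mean 19.9-fold that of CSF3R-only. On the log2 scale Mecom rose by 6.47 in CEBPA-first (standard error, SE, 0.23, edgeR adjusted p = 3.9e-10) and by 4.28 in CSF3R-first (SE 0.25, edgeR adjusted p = 2.2e-07). Only 29 of the other tested genes had a higher log2 fold change in the first comparison and 22 in the second. CEBPA-first also exceeded CSF3R-first, by 2.19 (SE 0.18, edgeR adjusted p = 2.2e-06). The CSF3R-first level thus lay at 66.2% of the log2 distance from CSF3R-only to CEBPA-first. The antisense gene Mecomos, which shares 0.652% of the exon bases of Mecom, was at a mean of 0.0234 CPM in CEBPA-first and below that elsewhere. Of the neighbours of Mecom, Egfem1 on the side of the lower coordinates had no count in any library, and Actrt3 on the other side had 6 counts over all 11 libraries.

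Prdm16 was higher in CEBPA-first by about the threshold fold and did not differ detectably between CSF3R-first and CSF3R-only. Prdm16 (ENSMUSG00000039410; chromosome 4, 154316125 to 154636873, minus strand, GRCm38) is the nearest relative of Mecom and acts in stem cell maintenance and in brown fat. Its promoter is printed beside those of the other risen factors, and it held 22 CpG dinucleotides and a GC content of 62.4%, where the median of all promoters was 6 and 52.4%. None of the 5 motifs searched occurred in it, so it has no capitals.
Prdm16 promoter, chr4:154636874-154637123, minus strand: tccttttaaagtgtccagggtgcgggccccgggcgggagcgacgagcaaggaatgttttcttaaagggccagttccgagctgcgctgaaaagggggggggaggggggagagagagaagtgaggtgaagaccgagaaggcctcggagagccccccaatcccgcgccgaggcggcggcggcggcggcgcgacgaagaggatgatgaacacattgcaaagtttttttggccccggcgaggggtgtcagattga
Prdm16 was at 1.08, 0.721, 0.746 and 0.855 CPM in CSF3R-only A to D and at 0.934, 0.684 and 0.964 CPM in CSF3R-first A to C. Its values in CEBPA-first A to D were 1.68, 2.11, 1.71 and 1.76 CPM. All 4 CEBPA-first samples were above all others, while the 2 other groups overlapped. CEBPA-first (1.82 ± 0.202 CPM, SD, n = 4) exceeded CSF3R-only (0.850 ± 0.164, n = 4) by a log2 fold change of 1.09 (SE 0.18, edgeR adjusted p = 0.00013) and CSF3R-first (0.861 ± 0.153, n = 3) by 1.07 (SE 0.20, edgeR adjusted p = 0.001). Without CEBPA-first replicate B or CSF3R-first replicate B the second value was 0.99 and 0.94, short of the fold threshold, with edgeR adjusted p of 0.0045 and 0.0042. CSF3R-first against CSF3R-only gave 0.02 (SE 0.21, edgeR adjusted p = 0.94). Counts were few, 34 to 138 per library. The genes on either side of Prdm16, Arhgef16 and Actrt2, had 3 counts in all and 0 counts.

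Hlf was higher in CEBPA-first than in both other groups, which did not differ detectably. Hlf (ENSMUSG00000003949; chromosome 11, 90336536 to 90390895, minus strand, GRCm38) is among the genes most restricted to stem cells in normal blood. Its promoter, printed to show the sequence before its start, had the highest CpG number of the 11 promoters of the 7 factors, 26, with a GC content of 67.2%. It held none of the motifs searched, the PAR bZIP letters TTANGTAA of its own group included.
Hlf promoter, chr11:90390918-90391167, minus strand: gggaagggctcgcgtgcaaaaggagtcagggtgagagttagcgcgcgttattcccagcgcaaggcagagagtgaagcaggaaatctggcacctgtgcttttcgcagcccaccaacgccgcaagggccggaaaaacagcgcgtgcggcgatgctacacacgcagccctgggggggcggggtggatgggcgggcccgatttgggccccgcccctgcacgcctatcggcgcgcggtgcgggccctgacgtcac
Hlf stood at 2.22, 3.42, 3.12 and 2.90 CPM in CSF3R-only A to D. CSF3R-first A to C were at 2.90, 3.50 and 2.78 CPM, within or just above the CSF3R-only range. CEBPA-first A to D were at 10.7, 14.6, 12.2 and 18.4 CPM, each more than 3 times the highest value of the other groups. Against the CSF3R-only mean of 2.92 ± 0.510 CPM (SD, n = 4), the CEBPA-first mean of 14.0 ± 3.35 (n = 4) was 4.79-fold higher (log2 fold change 2.26, SE 0.18, edgeR adjusted p = 1.9e-07). Against CSF3R-first (3.06 ± 0.386, n = 3) the log2 fold change was 2.19 (SE 0.20, edgeR adjusted p = 3.7e-06). The difference of CSF3R-first from CSF3R-only, 0.07 (SE 0.20, edgeR adjusted p = 0.82), was not detectable. CSF3R-first lay at 2.90% of the log2 distance between the other groups for Hlf and at 2.09% for Prdm16, against 66.2% for Mecom. The value for Mecom rests on 6 to 13 counts per CSF3R-only library, close to the limit of detection.

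The genes on both sides of Hlf moved in the same direction. Mmd, 57.9 kb away, encodes a membrane protein of maturing macrophages. Its mean was 20.9 ± 0.972 CPM in CSF3R-only (SD, n = 4), 21.7 ± 2.93 CPM in CSF3R-first (n = 3) and 40.9 ± 2.50 CPM in CEBPA-first (n = 4). Its log2 fold change in CEBPA-first against CSF3R-only was 0.97 (edgeR adjusted p = 3.7e-07) and in CSF3R-first 0.06 (edgeR adjusted p = 0.65). Stxbp4, 85.6 kb away on the other side, rose by 0.52 (edgeR adjusted p = 0.0015) in CEBPA-first and gave 0.01 (edgeR adjusted p = 0.94) in CSF3R-first. Each gene had its 4 CEBPA-first samples above all 7 others, as Hlf did, with smaller folds. Such separation from either group alone was common. Of all genes, 34.2% had every CEBPA-first sample above every CSF3R-only sample, and 27.4% had them above every CSF3R-first sample. A link between these neighbours and Hlf was not tested.

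Sox4 was highest in CEBPA-first and lay between the other groups in CSF3R-first. Sox4 (ENSMUSG00000076431; chromosome 13, 28948919 to 28953713, minus strand, GRCm38) is a gene of 1 exon whose product cooperates with other oncogenes in mouse myeloid leukemia. The long noncoding gene Gm26735 covers 54.6% of its exon bases on the opposite strand and had 0 counts in every library. The sources used here do not say whether counting used strand, so the value of Sox4 may leave out reads from the shared bases. The promoter of Sox4 is printed as that of the remaining factor that rose, and no motif searched occurred in it.
Sox4 promoter, chr13:28953700-28953949, minus strand: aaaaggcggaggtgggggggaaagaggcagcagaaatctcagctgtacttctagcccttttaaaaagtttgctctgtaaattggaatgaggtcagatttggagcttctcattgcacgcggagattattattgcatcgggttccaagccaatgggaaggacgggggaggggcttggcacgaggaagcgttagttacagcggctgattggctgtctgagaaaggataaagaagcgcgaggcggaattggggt
Sox4 was at 6.31, 8.35, 8.83 and 7.44 CPM in CSF3R-only A to D, and at 7.81, 12.2 and 13.1 CPM in CSF3R-first A to C. CEBPA-first A to D were at 20.2, 18.8, 21.6 and 20.6 CPM, above every other sample. CSF3R-first replicate A fell inside the CSF3R-only range, and replicates B and C were above it. Sox4 rose to 20.3 ± 1.18 CPM in CEBPA-first (SD, n = 4) from 7.73 ± 1.11 in the control (n = 4), a log2 fold change of 1.39 (SE 0.15, edgeR adjusted p = 2.3e-06). CSF3R-first, at 11.04 ± 2.84 CPM (n = 3), differed from CSF3R-only by 0.52 (SE 0.16, edgeR adjusted p = 0.019). This call was lost without CSF3R-only replicate A (0.43, edgeR adjusted p = 0.054), replicate B of CSF3R-first (0.44, 0.081) or its replicate C (0.39, 0.094). CEBPA-first exceeded CSF3R-first by 0.88 (SE 0.16, edgeR adjusted p = 0.00082), under the fold threshold, and without CSF3R-first replicate C by 1.01, past it. The nearest gene below Sox4, Gm11361, 691 kb away, gave no detectable difference from CSF3R-only in CEBPA-first (0.57, edgeR adjusted p = 0.14) or CSF3R-first (0.45, edgeR adjusted p = 0.35). The nearest gene above Sox4, Cdkal1, 238 kb away, ranked the groups in the same order, at 19.9 ± 0.752, 23.0 ± 1.63 and 28.1 ± 1.30 CPM. Its log2 fold change against CSF3R-only was 0.50 when CEBPA came first (edgeR adjusted p = 1.4e-05) and 0.20 when CSF3R came first (edgeR adjusted p = 0.032). At an adjusted p under 0.05, 35.4% and 21.6% of all genes were higher in the same comparisons.

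Erg was the 1 factor that moved in opposite directions in the 2 orders. Erg (ENSMUSG00000040732; chromosome 16, 95359169 to 95586593, minus strand, GRCm38) encodes an ETS factor of stem cells, megakaryocytes and endothelium. RefSeq lists 3 starts, and the promoter of the first is printed because it holds a match to the C/EBP letters TTGCNNAA, which read TTNNGCAA on the opposite strand, shown in capitals from 48 bases before the start. CEBPA is a C/EBP factor, these letters occurred in 9.56% of all promoters, and binding was not measured in these samples.
Erg first promoter, chr16:95586594-95586843, minus strand: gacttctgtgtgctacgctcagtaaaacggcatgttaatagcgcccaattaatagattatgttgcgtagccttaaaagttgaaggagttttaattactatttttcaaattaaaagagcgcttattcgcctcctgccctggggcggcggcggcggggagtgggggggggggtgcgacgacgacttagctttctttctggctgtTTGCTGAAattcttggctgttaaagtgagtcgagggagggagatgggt
CSF3R-only A to D had 4.86, 5.39, 5.40 and 5.62 CPM of Erg. In CSF3R-first A to C it was at 3.86, 3.68 and 3.81 CPM, below every CSF3R-only sample, and in CEBPA-first A to D at 6.78, 7.40, 6.80 and 7.15 CPM, above every CSF3R-only sample. The groups did not overlap in any of the comparisons. All 7 factors had no overlap between CEBPA-first and CSF3R-only, a state shared by 68.7% of all genes (34.2% higher, 34.5% lower). Between CSF3R-first and CSF3R-only it held for Mecom, Erg and Etv1 and 42.1% of all genes (20.7% higher, 21.4% lower), and between the orders for all factors but Etv6 and 52.2% of all genes (27.4% higher, 24.8% lower). From a CSF3R-only mean of 5.32 ± 0.324 CPM (SD, n = 4), Erg fell by 0.49 on the log2 scale to 3.78 ± 0.0895 when CSF3R came first (n = 3, SE 0.10, edgeR adjusted p = 0.0017) and rose by 0.40 to 7.03 ± 0.299 when CEBPA came first (n = 4, SE 0.09, edgeR adjusted p = 0.00094). The orders differed by 0.89 (SE 0.10, edgeR adjusted p = 1.6e-05), which is a 1.86-fold difference of the means and falls under the fold threshold.

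Ets2, the ETS gene next to Erg at 115 kb, did not share its pattern. Ets2 fell from 54.4 ± 4.93 CPM in the control (SD, n = 4) to 30.9 ± 5.25 when CSF3R came first (n = 3) and to 16.1 ± 1.26 when CEBPA came first (n = 4). The log2 fold change was -0.82 in the former (edgeR adjusted p = 0.00018) and -1.76 in the latter (edgeR adjusted p = 1.8e-08). Kcnj15, a potassium channel gene on the other side of Erg, was at 0.223 ± 0.0817, 0.0839 ± 0.0553 and 0.0287 ± 0.0336 CPM, near the detection limit. It was lower in CEBPA-first against CSF3R-only by a log2 fold change of -2.74 (edgeR adjusted p = 0.0027), opposite to Erg. Of the 10 endothelial markers, Cdh5, Emcn, Sox17, Sox18 and Robo4 were under 1 CPM in every library, while the others had counts at levels that include those of Erg. Kdr had means of 3.24 CPM in the control, 2.42 with CSF3R first and 4.44 with CEBPA first, Tek in the same order 1.99, 1.22 and 2.10, and Egfl7 7.45, 7.81 and 10.8, the lowest mean of Kdr and Tek being in CSF3R-first as for Erg. Tie1 fell, from 2.46 through 1.07 to 0.129 CPM. The summed CPM of the 10 endothelial genes was 140 to 149 in the control, 142 to 160 with CSF3R first and 167 to 187 with CEBPA first, most of it Pecam1, which blood cells also express. For the megakaryocyte genes, the other cells that use Erg, the sums were lower in both orders as given above. Their part in the values of Erg was not tested.

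**Figure D2:**
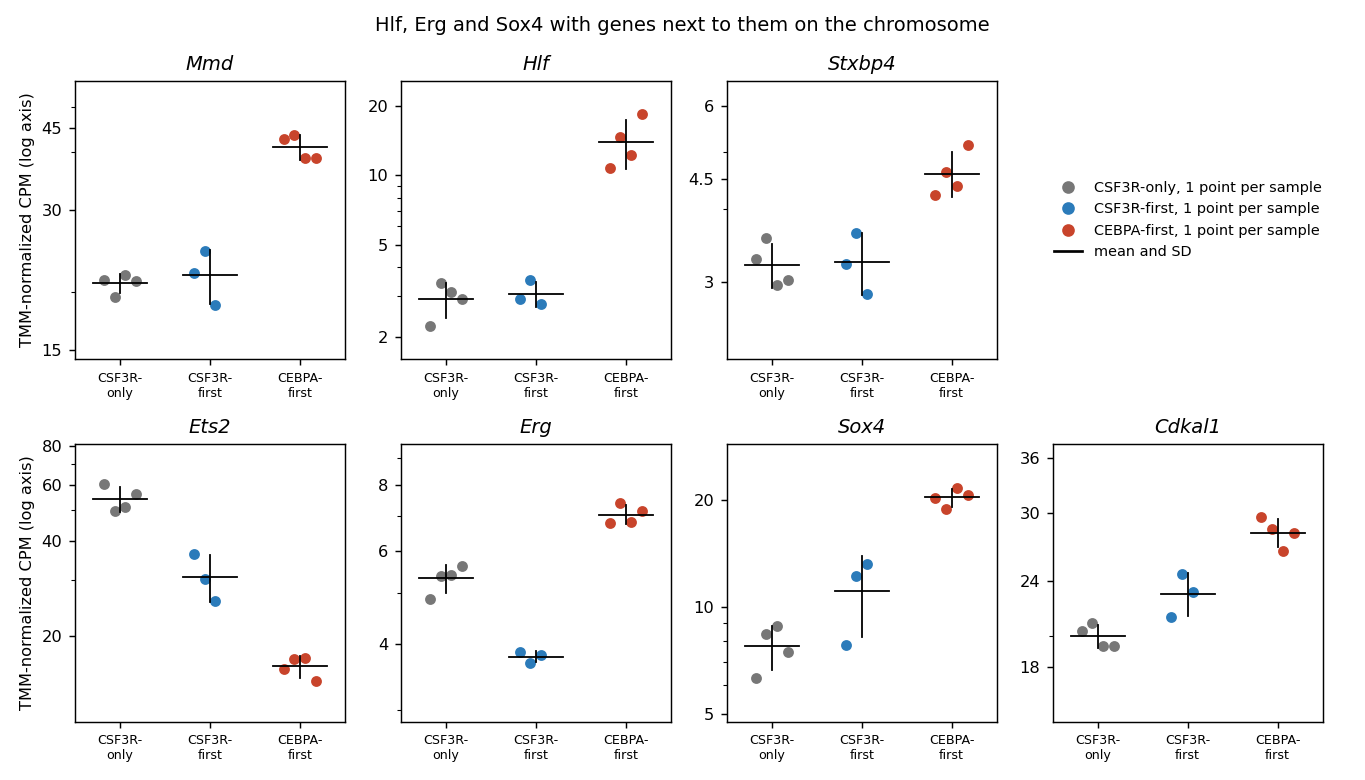
TMM-normalized CPM (log axis, 1 scale per gene) of Hlf, Erg and Sox4 and of genes next to them; points are samples, horizontal lines means and vertical lines SDs (n = 4, 3 and 4). Mmd and Stxbp4 are highest in CEBPA-first, as is Hlf, and Cdkal1 ranks the groups like Sox4. Ets2 falls to 16.1 CPM in CEBPA-first, where Erg is highest.

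Etv6 had the smallest fold of the 7 factors between CEBPA-first and CSF3R-only. Etv6 (ENSMUSG00000030199; chromosome 6, 134035700 to 134270158, plus strand, GRCm38) encodes an ETS repressor whose loss or fusion is frequent in human leukemia. CSF3R-only A to D were at 169, 166, 173 and 177 CPM, CSF3R-first A to C at 172, 198 and 192, and CEBPA-first A to D at 209, 231, 205 and 195. CEBPA-first samples were above all CSF3R-only samples and overlapped CSF3R-first at replicate D. Etv6 rose from 171 ± 4.60 CPM (SD, n = 4) to 210 ± 15.2 (n = 4) in CEBPA-first, a 1.23-fold difference (log2 fold change 0.29, SE 0.07, edgeR adjusted p = 0.0013). With 187 ± 13.8 CPM (n = 3), CSF3R-first did not differ detectably from CSF3R-only (0.13, SE 0.07, edgeR adjusted p = 0.16). CEBPA-first over CSF3R-first gave 0.17 (SE 0.07, edgeR adjusted p = 0.072). Without CSF3R-first replicate A the first value was 0.19 (edgeR adjusted p = 0.046). Without CSF3R-first replicate B or CEBPA-first replicate D, the second was 0.21 and 0.20 (edgeR adjusted p = 0.046 for both). The neighbours Kap, with 0 counts, and Bcl2l14, at 0.600 ± 0.0714 CPM in CSF3R-only and 0.544 ± 0.0340 in CEBPA-first (log2 fold change -0.14, edgeR adjusted p = 0.57), gave no detectable change between these groups. In CSF3R-first Bcl2l14 was at 0.395 ± 0.123 CPM (n = 3), a log2 fold change of -0.59 against CSF3R-only (edgeR adjusted p = 0.074).

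Etv1 was the only factor of the 7 with less RNA in CEBPA-first samples than in CSF3R-only samples, and it was lower in CSF3R-first too. Etv1 (ENSMUSG00000004151; chromosome 12, 38779380 to 38870484, plus strand, GRCm38) encodes an ETS activator of the PEA3 group, to which Etv4 and Etv5 also belong, and it is fused in prostate cancer. RefSeq lists 2 starts. The second promoter is printed because it holds the C/EBP letters, in capitals from 186 bases before the start, in the orientation TTNNGCAA.
Etv1 second promoter, chr12:38783461-38783710, plus strand: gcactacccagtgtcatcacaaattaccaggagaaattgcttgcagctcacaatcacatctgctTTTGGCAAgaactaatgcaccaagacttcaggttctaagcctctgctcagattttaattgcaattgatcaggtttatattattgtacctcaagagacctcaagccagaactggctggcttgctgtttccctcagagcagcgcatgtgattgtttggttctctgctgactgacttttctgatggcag
Etv1 stood at 7.39, 6.97, 9.11 and 7.25 CPM in CSF3R-only A to D, and at 5.68, 1.91 and 3.78 CPM in CSF3R-first A to C. CEBPA-first A to D were down to 0.633, 0.494, 1.13 and 0.434 CPM, from 29 to 59 counts per library. The 3 groups did not overlap, and the CSF3R-first samples were the most scattered, with replicate A near CSF3R-only and replicate B near CEBPA-first. From 7.68 ± 0.970 CPM in CSF3R-only (SD, n = 4), Etv1 fell to 0.674 ± 0.317 in CEBPA-first (n = 4), 11.4-fold lower (log2 fold change -3.54, SE 0.34, edgeR adjusted p = 9.4e-07). CSF3R-first was at 3.79 ± 1.89 CPM (n = 3), with a log2 fold change of -1.02 against CSF3R-only (SE 0.32, edgeR adjusted p = 0.021). That call was lost without CSF3R-only replicate C (-0.93, edgeR adjusted p = 0.052), replicate B of CSF3R-first (-0.70, 0.076) or its replicate C (-1.003, 0.058). CEBPA-first was below CSF3R-first by -2.52 (SE 0.35, edgeR adjusted p = 0.00013). Near-identical copies of 23.7% of the longest Etv1 transcript lie in Gm5454, Pgm2l1 and Sntb2 (at least 100 bases at 97% identity), so part of its reads could be counted elsewhere. Gm5454 was at 0.118 CPM or less on average in every group. Sntb2 fell in CEBPA-first against CSF3R-only as well (log2 fold change -1.11, edgeR adjusted p = 1.5e-07), and Pgm2l1 rose (0.49, edgeR adjusted p = 0.0003). The neighbour Dgkb had 0 counts, and Arl4a, at 15.3 ± 2.69 CPM in CSF3R-only and 14.9 ± 1.62 in CEBPA-first, did not differ detectably (log2 fold change -0.04, edgeR adjusted p = 0.84).

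**Figure D3:**
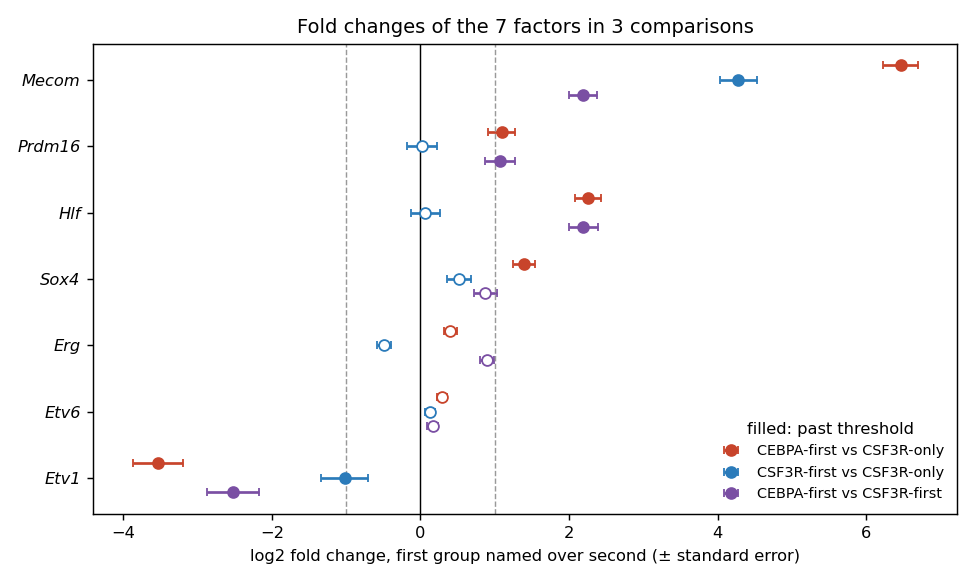
Log2 fold change (x axis, ± SE) of each factor in the 3 comparisons, the group named first over the second; filled points passed an adjusted p of 0.05 with a log2 fold change of at least 1, marked by dashed lines. Mecom lies between 2.19 and 6.47 and Etv1 between -3.54 and -1.02, while the CSF3R-first vs CSF3R-only points of Prdm16 (0.02) and Hlf (0.07) sit at the zero line.

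Levels of the factors were compared with each other per kilobase of exon, since the genes differ in length. Etv6 was the most abundant in all groups, at 28.6 ± 0.769 CPM per kb in CSF3R-only (SD, n = 4), 31.3 ± 2.31 in CSF3R-first (n = 3) and 35.1 ± 2.55 in CEBPA-first (n = 4). In CSF3R-only, Sox4 (1.61 ± 0.232) and Erg (1.53 ± 0.0934) followed and did not differ beyond their spread, and Etv1 (0.578 ± 0.0729) and Hlf (0.437 ± 0.0763) came next, at 0.524 to 0.685 and 0.333 to 0.513 CPM per kb. Prdm16 was at 0.0912 ± 0.0176 and Mecom last, at 0.0137 ± 0.00291. In CEBPA-first the order after Etv6 was Sox4 (4.23 ± 0.245), then Hlf (2.09 ± 0.502) and Erg (2.03 ± 0.0864), which overlapped, then Mecom (1.24 ± 0.149), Prdm16 (0.195 ± 0.0217) and Etv1 (0.0507 ± 0.0239). Mecom thus passed from the last place to above Prdm16 and Etv1, and Etv1 moved to the last place. CSF3R-first kept Sox4 (2.30 ± 0.592) and Erg (1.09 ± 0.0258) behind Etv6, and Hlf (0.458 ± 0.0577), Etv1 (0.285 ± 0.142) and Mecom (0.272 ± 0.0840) followed, where Etv1 overlapped both Hlf and Mecom. The order depends on the length used, since the exons of all transcripts of Mecom and Etv1 add up to about 2 times their longest transcript. Per kb of the longest transcript, a length chosen after seeing the data, Mecom in CEBPA-first was at 2.71 ± 0.326, beside Hlf at 2.47 ± 0.594 and above Erg at 2.16 ± 0.0921, and in CSF3R-first Mecom (0.594), Etv1 (0.576) and Hlf (0.543) overlapped. Mecom was still last in CSF3R-only (0.0299) and Etv1 in CEBPA-first (0.102). If reads from the bases that Sox4 shares with Gm26735 were not counted, Sox4 in CSF3R-only would be at 3.55 ± 0.510 CPM per kb of its other bases, above Erg.

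Across the 11 promoters that RefSeq gives for the 7 factors (GRCm38.p6), 5 held any of the motifs. Beside those named above, the second Erg promoter held the C/EBP letters 187 bases before the start and the third the GATA letters AGATAA 103 bases before it. The GATA letters occurred in 9.99% of all promoters. No promoter of the 7 factors held the PAR bZIP letters (2.06% of all promoters) or the STAT letters TTCNNNGAA (7.02%). All motifs were searched on both strands, and no match overlapped another. C/EBP letters were thus found upstream of Erg and Etv1 and not in these windows of Mecom, Prdm16, Hlf, Sox4 and Etv6, and enhancers were not searched. These letters occurred in 9.56% of all promoters. Erg, Etv1 and Mecom had more than 1 promoter searched and so more room for a match than the other factors.

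Other genes of the families of the factors were read next, where higher and lower are those of CEBPA-first relative to CSF3R-only unless another comparison is named. Of the 18 other ETS genes tested, 1 was higher and 4 were lower past the threshold between CEBPA-first and CSF3R-only, with a median log2 fold change of -0.41 where the median of all genes was -0.004. These counts are near the 8.07% and 19.0% of all genes. Etv4, of the same group as Etv1, rose by 1.20 (edgeR adjusted p = 0.00084), while Etv5, the third member of that group, gave -0.58 (edgeR adjusted p = 0.0017) and Etv1 -3.54. Spic, an ETS factor of red pulp macrophages, fell by 3.74 on the log2 scale (edgeR adjusted p = 1.7e-06), and Spib (-2.36), Ehf (-2.04) and Ets2 (-1.76) fell as well. In CSF3R-first against CSF3R-only, 0 of the 18 passed the threshold, and 7 were lower and 0 higher at an adjusted p under 0.05 alone (edgeR, median log2 fold change -0.21), beside 21.1% and 21.6% of all genes. At an unadjusted p under 0.05, 0 were higher and 8 lower.

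Mecom and Prdm16 were the only PRDM genes that rose past the threshold. Of the 8 other PRDM genes tested, 0 were higher and 1 was lower past the threshold between CEBPA-first and CSF3R-only (median log2 fold change -0.08), and by adjusted p alone 2 were higher and 4 lower. Of all genes, 8.07% and 19.0% were so past the threshold and 35.4% and 36.6% by adjusted p alone, so the counts for 8 genes are near the background. Prdm1 encodes a transcriptional repressor that acts in plasma cells and in terminal differentiation. Its level fell from 16.5 ± 1.39 CPM (SD, n = 4) to 4.53 ± 0.404 (n = 4), a log2 fold change of -1.87 (edgeR adjusted p = 1.3e-08). Prdm1 fell in CSF3R-first too, to 10.1 ± 1.44 CPM (n = 3, log2 fold change -0.72, edgeR adjusted p = 0.00046).

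Hlf was the 1 member of the PAR bZIP group to change past the threshold. The clock-controlled relatives gave values near 0 between CEBPA-first and CSF3R-only, Dbp a log2 fold change of 0.17 (edgeR adjusted p = 0.27) and Tef -0.16 (edgeR adjusted p = 0.14). Nfil3, a repressor that binds the same kind of site, gave -0.81 (edgeR adjusted p = 0.0001). Most SOX genes had few or no counts, with 5 of 19 passing the filter on low counts. Sox12, which belongs to the same SOX group as Sox4, rose from 2.57 ± 0.645 to 8.73 ± 0.530 CPM (SD, n = 4 and 4), by 1.76 on the log2 scale (edgeR adjusted p = 7.5e-06). Sox5 rose by 2.53 (edgeR adjusted p = 2.4e-06) and its relative Sox6, an erythroid regulator, fell by 1.34 (edgeR adjusted p = 0.0004).

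**Figure D4:**
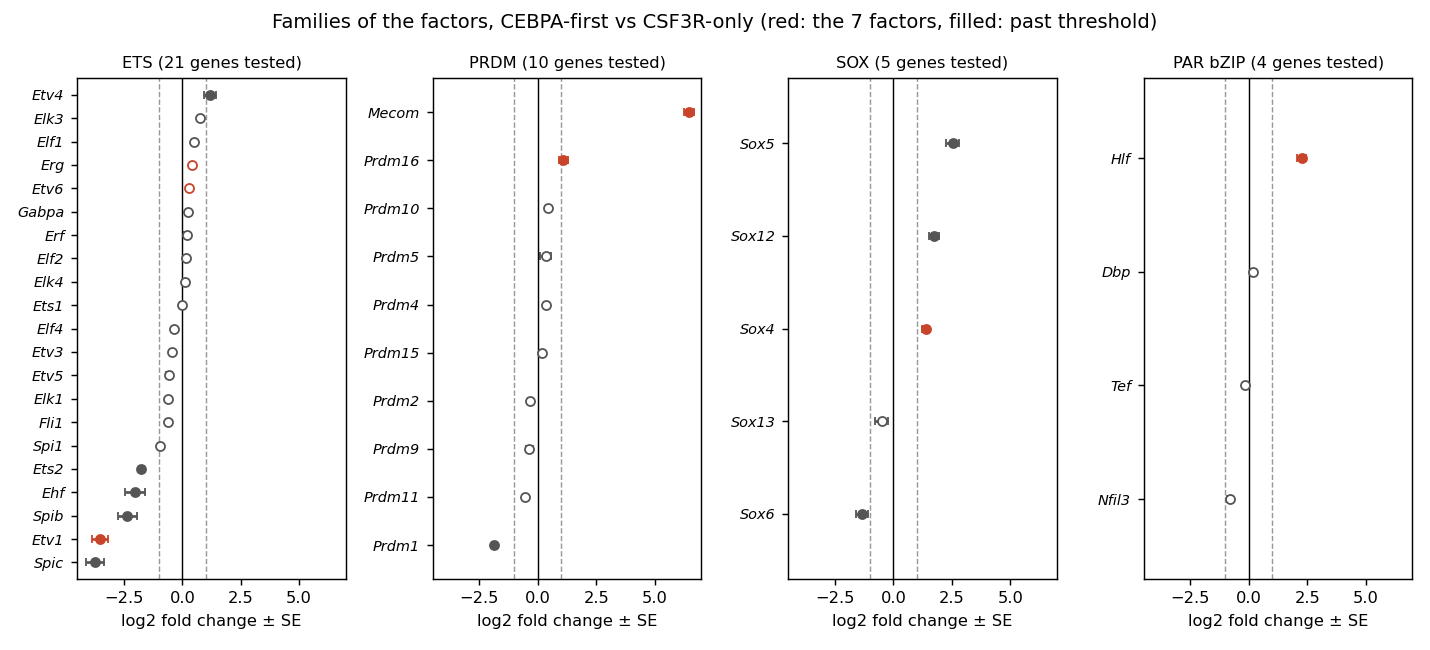
Log2 fold change in CEBPA-first vs CSF3R-only (x axis, ± SE, same scale in the 4 panels) of the tested ETS, PRDM, SOX and PAR bZIP genes, ordered by value; red marks the 7 factors, filled points passed the threshold and dashed lines mark log2 fold changes of -1 and 1. Mecom at 6.47 stands at the top of its family, and Etv1 at -3.54 is next to the lowest ETS gene, Spic.

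Among other transcription factors of stem cells, counts past the threshold were few. Of 30 listed, 28 were tested, of which 3 rose and 4 fell past the threshold between CEBPA-first and CSF3R-only (median log2 fold change -0.07), beside 8.07% and 19.0% of all genes. Those counts are near the shares of all genes. Myb, which progenitors need to proliferate, rose by 1.62 on the log2 scale (edgeR adjusted p = 7.4e-08), Hmga2, a chromatin protein of fetal stem cells, by 1.13 (edgeR adjusted p = 0.0066), and Lmo2, a bridging factor of the TAL1 complex, by 1.08 (edgeR adjusted p = 7e-08). Meis1 (-1.55, edgeR adjusted p = 5.2e-07), which encodes a partner of HOX proteins, fell, and Id1 (-1.34) and Gfi1b (-1.07) fell too. In CSF3R-first, 0 of the 28 passed the threshold with edgeR, 5 were higher and 8 lower by edgeR's adjusted p alone, and 6 and 8 by an unadjusted p under 0.05. Of all genes, 2.13% were higher and 4.53% lower past the threshold there, and 21.6% and 21.1% by adjusted p, which is near the counts of the list. Of 10 surface markers of stem and progenitor cells tested, 6 were lower and 1, Flt3, was higher past the threshold when CEBPA-first was set against CSF3R-only, beside 19.0% and 8.07% of all genes. By adjusted p alone 6 were lower and 4 higher, the latter being Flt3, Cd48, Cd27 and Kit, beside 36.6% and 35.4% of all genes. Their summed CPM was 553 to 770 in the control, 383 to 424 with CSF3R first and 258 to 281 with CEBPA first, and Ly6a was the largest part of it in CSF3R-only, with a mean of 402 CPM, against 63.2 in CEBPA-first.

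Corepressors known to bind Mecom, Prdm16 or Etv6 stayed under the fold threshold. Of the 11, 0 passed the threshold between CEBPA-first and CSF3R-only with edgeR or DESeq2, where 27.0% of all genes passed it with edgeR (8.07% higher, 19.0% lower). By edgeR's adjusted p alone 7 were higher and 2 lower, and by an unadjusted p under 0.05 7 and 3 (median log2 fold change 0.21), where 35.4% of all genes were higher and 36.6% lower by adjusted p alone. The histone methyltransferase gene Suv39h1 gave 0.94 (edgeR adjusted p = 1.8e-07) and the deacetylase gene Hdac2 0.79 (edgeR adjusted p = 3.3e-06). Ctbp1 and Ctbp2, the classical partners of Mecom, gave 0.07 and -0.19 (edgeR adjusted p = 0.27 and 0.01). Of 9 genes described as targets of Mecom, 8 were tested. None was higher and 3 were lower past the threshold, and by adjusted p alone 0 were higher and 6 lower, with a median log2 fold change of -0.84. The shares of all genes were 8.07% and 19.0% past the threshold and 35.4% and 36.6% by adjusted p. Cd52, a surface glycoprotein gene, fell by 2.87 on the log2 scale (edgeR adjusted p = 1.9e-08), and the kinase gene Map3k14 (-1.20) fell too (edgeR adjusted p = 2.4e-06). Gata2 gave -0.35 (edgeR adjusted p = 0.053) and Adgrg1 0.19 (edgeR adjusted p = 0.44).

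The genes whose levels were most like those of each factor were picked by Pearson's r of log2 CPM over the 11 samples, among 11701 genes whose average log2 CPM was 0 or more. These values describe samples that fall into 3 groups, so they follow the group means and carry no test. Mecom was most like Bace1 (r = 0.997), Chdh (0.996) and Tedc1 (0.995), of which Chdh, choline dehydrogenase, went from 1.99 ± 0.362 CPM in CSF3R-only through 33.4 ± 5.38 to 184 ± 16.3 in CEBPA-first (SD, n = 4, 3 and 4). Hlf was most like Gpr34 (0.990), Fiz1 (0.983) and Itm2a (0.979). For Sox4 they were Dnaaf2 (0.988), Prpf40b (0.988) and Epop (0.987), and for Prdm16 St8sia4 (0.956), Nf1 (0.950) and Myo7a (0.944). Etv1 was nearest to Arl4c (0.995), Adam8 (0.994) and Dpep2 (0.993), Etv6 to Atg2b (0.993), Zmym4 (0.989) and Ddx42 (0.984), and Erg to Esyt1 (0.959), Nck2 (0.957) and Hectd2 (0.954). No gene was among the 3 most alike of more than 1 factor.

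The mouse genes of the oncogenes themselves were read as a check. The vectors may add reads to them, which was not tested. Mouse Cebpa had a mean of 87.2 ± 6.98 CPM in the control (SD, n = 4), 131 ± 10.4 with CSF3R first (n = 3) and 167 ± 6.12 with CEBPA first (n = 4), the order of the means of all factors but Erg and Etv1, not all steps of which were detectable. Mouse Csf3r was at 846 ± 94.9, 516 ± 118 and 154 ± 16.1 CPM, the order of Etv1.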

How the data were processed

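The authors trimmed reads with Trimmomatic and aligned them with STAR, and deposited raw counts per mouse gene without normalization. The submitters' processing notes name mm10 and DESeq2. The counting tool, annotation and use of strand are not given in the sources used here. Of 51912 genes, 23409 had no count and 15703 passed edgeR's filterByExpr. Counts were normalized with TMM and tested in edgeR 4.0.16 (R 4.3.3, limma 3.58.1) by its quasi-likelihood test with Benjamini-Hochberg adjustment, all 3 groups sharing a single model with no covariate. SEs were derived from the F statistic (log2 fold change over root F), and a prior count of 2 entered log2 CPM. The pipeline was tested on simulated data.

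The factors and lists were chosen with earlier results of these data known. Named were the 7 factors, the 3 genes most like each, the nearest coding gene on each side, and from each list up to 2 genes at either end among those that passed the threshold between CEBPA-first and CSF3R-only. Spib, Ehf, Ets2 and Etv5, Lmo2, Id1 and Gfi1b, Dbp, Tef and Nfil3, Map3k14, Gata2 and Adgrg1, Cd48, Cd27, Kit, Ly6a, Srgn, Cd79b and the endothelial genes other than Tie1, the corepressors and the genes sharing sequence with a factor were named after their values were seen. Ptprc, Cd3e and Pax5 were also named outside this rule. Marker lists are given as sums, some with counts of calls. One gene of the lists is not reported here by name.

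Positions came from GENCODE M21 (GRCm38), promoters from RefSeq (GRCm38.p6, 11 promoters for 7 of 7 factors), and near-identical stretches from BLAST 2.17.0. Alternatives were DESeq2 1.42.0, other normalizations, filters and thresholds, fits of only the groups compared, blocking on replicate letter and leaving each sample out.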

Additional observations from a re-analysis of the deposited data

Results flagged for a closer look

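Erg moved in opposite directions in the 2 orders: every CSF3R-first sample was below, and every CEBPA-first sample above, the 4 CSF3R-only samples. The difference between the orders was a log2 fold change of 0.89 (SE 0.10, edgeR's quasi-likelihood test, adjusted p = 1.6e-05).

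Among 37 groups of 4 samples of the factors, their neighbours and the mouse Cebpa and Csf3r genes, 2 held a sample set well apart, and about 1.85 such groups would be met by chance. Actrt3, next to Mecom, was at 0.0432 CPM in CSF3R-only replicate A, from 2 counts, with 0 counts in the 3 other replicates. Bcl2l14, next to Etv6, was at 0.595 CPM in CEBPA-first replicate C, with the nearest replicate at 0.531.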

How the results depend on the processing

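In CSF3R-first against CSF3R-only, the 2 factors past the threshold became 1 without the filter on low counts, with at least 10 counts in every sample (where Mecom was not tested) and with glmTreat, a stricter test, and 4 by adjusted p alone. Leaving out each sample in turn gave 1 to 2 (1 without CSF3R-only replicate C or without replicate B or C of CSF3R-first). The counts of 5 and 4 in the other comparisons stayed between 4 and 7 and between 3 and 6. Of 375 single log2 fold changes recomputed, 360 kept sign and stayed on the same side of 0.05 in adjusted p, 6 lost and 3 gained that p, and 6 turned sign. With the fold included, 6 calls were lost (4 of Etv1, 2 of Prdm16) and 1 gained (Sox4), among them Etv1 at -0.97 without the filter. The 6 values that turned sign were in CSF3R-first against CSF3R-only and near 0: Prdm16 gave -0.05 without CSF3R-only replicate B, -0.04 without C, -0.03 without CSF3R-first replicate A and -0.053 without C (range over samples left out -0.053 to 0.16), and Hlf gave -0.042 without CSF3R-only replicate A and -0.04 without CSF3R-first replicate B (range -0.042 to 0.15). The cause was not tested.

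The labels do not say what the replicate letters share, and not every same-letter pair had deviations correlated above 0.1 (7 of 10, -0.11 to 0.36), so samples were not treated as paired. As a hint from the data, 9 of 10 same-letter pairs (mean r 0.16) and 8 of 30 others (mean r -0.053) were above 0 (deviations of a group sum to 0, which ties these values together), and the closest sample of another group had the same letter in 12 of 20 matches. With letters as a replicate block, the counts past the threshold were 5, 2 and 4, as without it. With Spearman correlation, the genes most like Mecom, Prdm16, Hlf, Sox4 and Etv6 shared 0 of 3 with those named. List counts in CEBPA-first against CSF3R-only under RLE or upper-quartile factors and DESeq2, chosen after seeing the data, equalled those given. Low counts limit Mecom in CSF3R-only, Prdm16, and Etv1 in CEBPA-first.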
